A study of Mus musculus with 7 samples.

Results

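The cytochrome P450 genes Cyp2a4, Cyp2a5, Cyp2a12, Cyp2a22, Cyp2d9, Cyp2d26, Cyp2e1, Cyp2f2, Cyp2j5 and Cyp2u1 were examined in livers of Trpm6-deficient mice. These 10 genes were chosen by symbol, out of 21335 gene symbols in the annotation of the array, which read them with 9 of its 35556 probe sets, because Cyp2a4 and Cyp2a5 share 1. Trpm6-deficient livers (n = 3, aged 13, 12 and 13 weeks) lacked an exon of Trpm6 on both alleles. The paternal allele was inherited already deleted, and the maternal floxed allele was deleted by a Sox2-Cre transgene that acts in the epiblast, and so throughout the embryo proper but not in extraembryonic tissue. Control livers (n = 4, aged 12, 12, 13 and 13 weeks) carried 1 floxed Trpm6 allele and no Cre. All mice were male littermates on the C57BL/6 background, and each gave 1 array from a fragment of the left liver lobe. Values are log2 expression, on which a difference of 1 is a doubling, and a probe set was called at a limma p of 0.1 or less after Benjamini-Hochberg adjustment over all probe sets.

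Cytochromes P450 of family 2 are heme enzymes of the endoplasmic reticulum. They take electrons from cytochrome P450 reductase and insert oxygen into drugs, solvents, steroids and fatty acids. In mouse liver many of them depend on the hepatocyte's place between portal and central vein, on sex, or on receptors that sense foreign compounds.

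The 9 member probe sets did not move as a group. Of the 9 probe sets, Cyp2u1 alone was called, and it fell. No member was called higher, against a background of 0.0759% of all probe sets, and 1 was called lower, against 0.0534%. Before adjustment, 2 passed a limma p of 0.05 upward (Cyp2a22 and Cyp2d26; background 3.85%) and 3 downward (Cyp2d9, Cyp2j5 and Cyp2u1; background 3.03%). The 3 Trpm6-deficient livers lay wholly above the 4 controls in 2 members (Cyp2a22 and Cyp2d26; background 2.94%) and wholly below them in 3 (Cyp2d9, Cyp2f2 and Cyp2u1; background 2.38%). The groups met or overlapped in the other 4. The median log2 change of the 9 probe sets was -0.01, beside 0 over all probe sets.

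**Figure D1:**
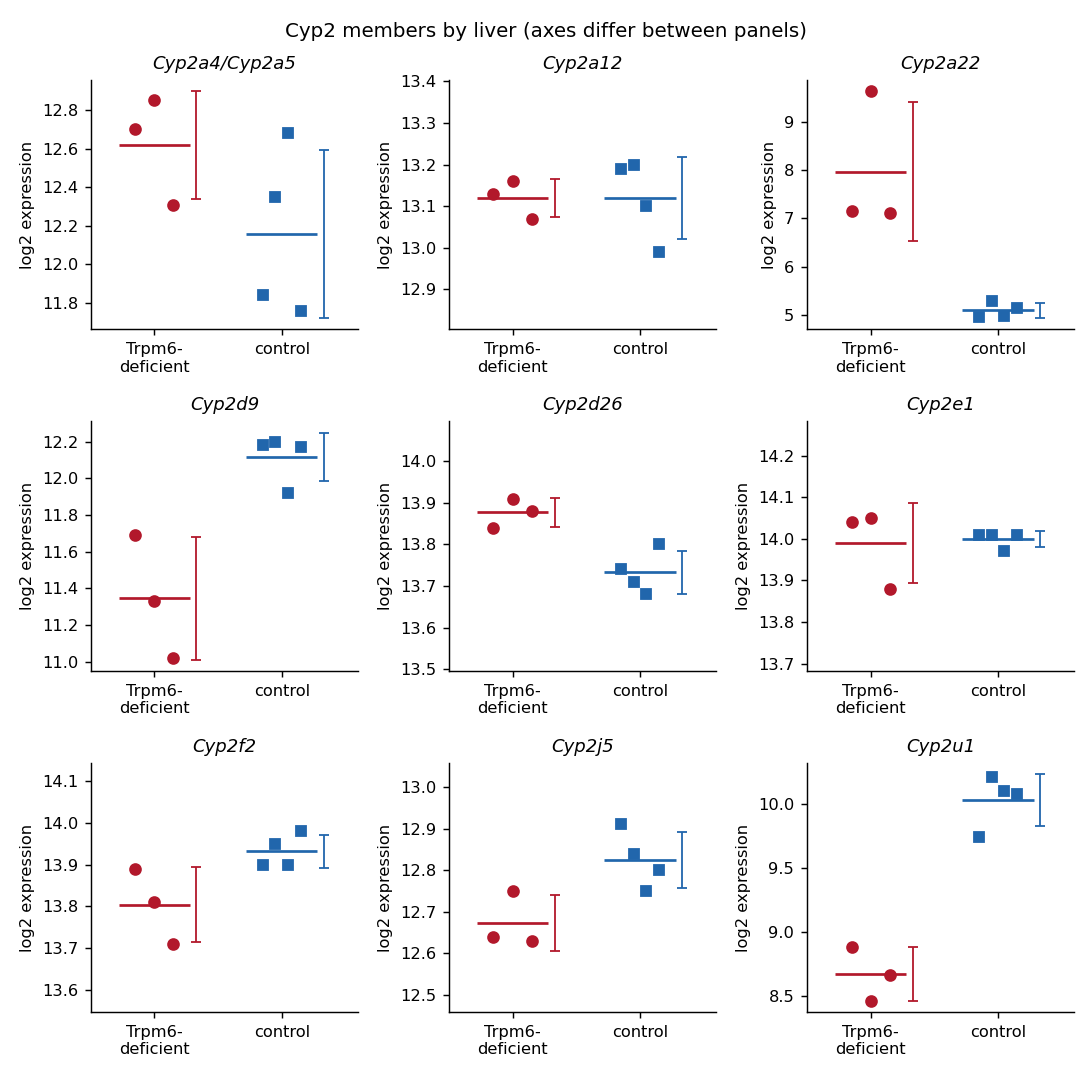
Log2 expression of each Cyp2 probe set in every liver, with Trpm6-deficient livers left of controls, 1 point per liver, a line at each group's mean and a bar for its SD; the vertical scale differs between panels. Cyp2u1 and Cyp2d9 were lower in all 3 Trpm6-deficient livers, and Cyp2a22 was higher in all 3.

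Cyp2u1, a fatty acid hydroxylase, showed the clearest change. It measured 8.88, 8.46 and 8.66 in Trpm6-deficient livers and 9.74, 10.21, 10.10 and 10.08 in controls. The groups were separated by 0.86, more than the range within either. Cyp2u1 averaged 8.67 ± 0.21 in Trpm6-deficient livers (SD, n = 3) and 10.03 ± 0.20 in controls (SD, n = 4). It fell by 1.37 on the log2 scale (SE 0.14, limma adjusted p = 0.0697), to 38.8% of the control level. The call was lost without any single control, or without Trpm6-deficient 2 or 3, where the log2 change stayed between -1.46 and -1.26 and the adjusted p reached 0.287. Liver was read whole, so fewer cells of a type and less RNA per cell cannot be told apart.

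In the Cyp2a subfamily the probe sets diverged. Cyp2a5 is the mouse coumarin hydroxylase, Cyp2a4 a steroid hydroxylase, and Cyp2a12 hydroxylates testosterone and secondary bile acids. The windows around the transcription starts of the 4 genes (RefSeq, GRCm38.p6; 250 bases before the start and 50 from it) are shown because 1 pair shares a probe set and the other pair, chromosomal neighbours, gave unlike values. Capitals mark bases that differ within a pair or stand opposite a gap. The windows are Cyp2a4 at chr7:26306942-26307241 and Cyp2a5 at chr7:26835089-26835388, both on the plus strand, then Cyp2a22 at chr7:26939337-26939636 on the minus strand and Cyp2a12 at chr7:27028840-27029139 on the plus strand.
Cyp2a4: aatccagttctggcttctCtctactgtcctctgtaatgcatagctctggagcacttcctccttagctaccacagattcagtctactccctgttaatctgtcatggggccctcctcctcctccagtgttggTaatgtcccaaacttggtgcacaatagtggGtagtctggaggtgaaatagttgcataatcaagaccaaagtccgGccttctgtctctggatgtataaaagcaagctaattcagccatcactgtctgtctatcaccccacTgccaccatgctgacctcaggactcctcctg
Cyp2a5: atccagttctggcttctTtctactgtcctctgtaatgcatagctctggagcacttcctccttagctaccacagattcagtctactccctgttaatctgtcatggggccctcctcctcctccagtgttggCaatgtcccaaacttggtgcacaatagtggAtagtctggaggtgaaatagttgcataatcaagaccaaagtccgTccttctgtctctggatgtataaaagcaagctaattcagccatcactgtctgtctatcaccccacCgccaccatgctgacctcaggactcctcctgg
Cyp2a22: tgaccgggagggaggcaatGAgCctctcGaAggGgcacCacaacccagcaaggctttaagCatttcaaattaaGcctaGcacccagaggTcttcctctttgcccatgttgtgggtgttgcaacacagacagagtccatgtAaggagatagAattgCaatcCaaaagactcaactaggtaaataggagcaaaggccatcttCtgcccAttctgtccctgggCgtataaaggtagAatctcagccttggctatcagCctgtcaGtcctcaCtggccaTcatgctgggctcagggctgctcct
Cyp2a12: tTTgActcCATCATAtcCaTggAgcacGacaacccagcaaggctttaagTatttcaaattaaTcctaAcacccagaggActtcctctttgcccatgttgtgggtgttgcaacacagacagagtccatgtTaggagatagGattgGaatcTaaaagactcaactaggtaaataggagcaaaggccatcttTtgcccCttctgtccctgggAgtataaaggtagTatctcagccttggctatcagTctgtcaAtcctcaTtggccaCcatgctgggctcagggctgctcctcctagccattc

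The Cyp2a4 and Cyp2a5 windows matched at 294 of 299 aligned bases (98.3%). Their 5 substitutions, counted from 1 at the 5′ end of the Cyp2a4 window with its base first, were C19T, T131C, G161A, G205T and T270C. The Cyp2a22 and Cyp2a12 windows matched at 259 of 289 alignment columns (89.6%), with 23 substitutions and 7 gap columns. Windows for 9 of the 10 members, all but Cyp2u1, were searched on both strands for short forms of factor motifs. CAAAGTCC, a form of the HNF4 motif, lay in the Cyp2a4 and Cyp2a5 windows, beginning 55 and 56 bases before the start, and in 1.42% of 32851 windows of the same length. TTCNNNGAA (STAT5), TTATGTAA (PAR bZIP) and GTTAATNAT (HNF1) lay in none of the 9, and in 8.3%, 0.938% and 0.801% of all windows.

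Cyp2a22 had the largest log2 change among the 9 probe sets but was not called. It measured 7.15, 9.64 and 7.12 in Trpm6-deficient livers and 4.95, 5.29, 4.98 and 5.15 in controls. Trpm6-deficient 2 stood far above the other two, and even the lowest lay 1.83 above the highest control. Cyp2a22 averaged 7.97 ± 1.45 in Trpm6-deficient livers (SD, n = 3) and 5.09 ± 0.16 in controls (SD, n = 4). The log2 change was 2.88 (SE 0.62, 95% interval 1.38 to 4.37, limma adjusted p = 0.377), or 7.35-fold. Without Trpm6-deficient 2 it was 2.04 and the adjusted p was 0.0315. The controls lay near the lower quartile of the arrays (5.05 to 5.11), so the fold would be a lower bound if they were at background.

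The probe set shared by Cyp2a4 and Cyp2a5 measured 12.70, 12.85 and 12.31 in Trpm6-deficient livers and 11.84, 12.35, 12.68 and 11.76 in controls. The groups overlapped, with a log2 change of 0.46 (SE 0.26, 95% interval -0.16 to 1.08, limma adjusted p = 0.826). Cyp2a12 measured 13.13, 13.16 and 13.07 in Trpm6-deficient livers and 13.19, 13.20, 13.10 and 12.99 in controls. Its interval around a log2 change of 0.00 ran between -0.16 and 0.16.

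**Figure D2:**
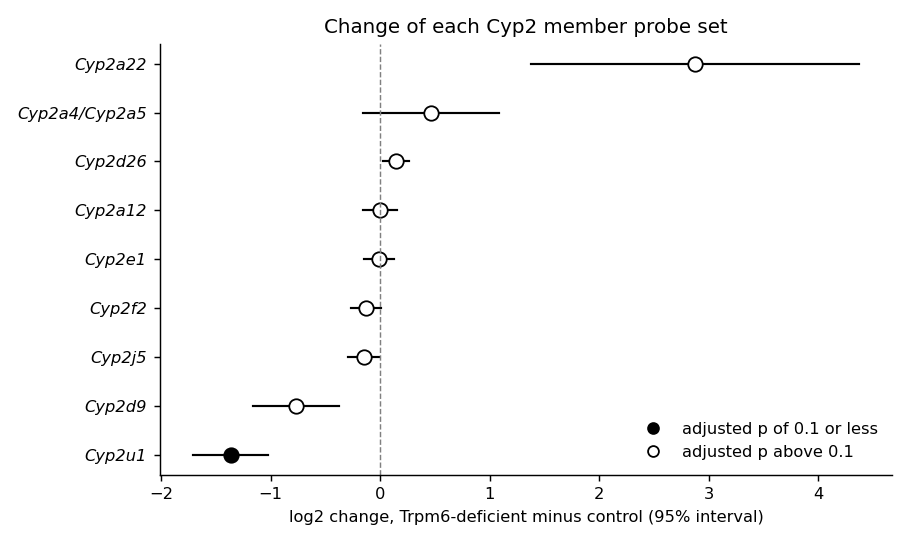
Log2 change of each Cyp2 probe set, Trpm6-deficient minus control, with its 95% interval; a filled point marks an adjusted p of 0.1 or less. Cyp2u1 is the filled point at -1.37, while the interval of Cyp2a22, at 2.88, is the widest.

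The Cyp2d genes encode relatives of human drug-metabolising CYP2D6, and Cyp2d9 is a testosterone hydroxylase known from male mouse liver. Cyp2d9 measured 11.69, 11.33 and 11.02 in Trpm6-deficient livers and 12.18, 12.20, 11.92 and 12.17 in controls. All Trpm6-deficient values were below all control values, with a gap of 0.23, and the means were 11.35 ± 0.34 in Trpm6-deficient livers (SD, n = 3) and 12.12 ± 0.13 in controls (SD, n = 4). The log2 change was -0.77 (SE 0.16, 95% interval -1.16 to -0.38), 58.6% of the control level, and the limma adjusted p of 0.366 missed the threshold. Cyp2d26 measured 13.84, 13.91 and 13.88 in Trpm6-deficient livers and 13.74, 13.71, 13.68 and 13.80 in controls. The groups stood apart by 0.04, and the log2 change was 0.14 (SE 0.05, limma adjusted p = 0.641).

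Cyp2e1, which oxidises ethanol and acetaminophen in pericentral hepatocytes, gave 14.04, 14.05 and 13.88 in Trpm6-deficient livers and 14.01, 14.01, 13.97 and 14.01 in controls. The groups overlapped, and the 95% interval of the log2 change was -0.14 to 0.12. Cyp2f2, a periportal enzyme that activates naphthalene, gave 13.89, 13.81 and 13.71 in Trpm6-deficient livers and 13.90, 13.95, 13.90 and 13.98 in controls. The groups were parted by only 0.01, with a log2 change of -0.13 (SE 0.06, limma adjusted p = 0.759). Cyp2d26, Cyp2e1 and Cyp2f2 lay above the 99th percentile of every array, and Cyp2a12 lay at percentile 98.9 to 99.2. Compression near the top of the scale was not tested for any of them. Cyp2j5, an arachidonic acid epoxygenase, gave 12.64, 12.75 and 12.63 in Trpm6-deficient livers and 12.91, 12.84, 12.75 and 12.80 in controls. The groups touched at 12.75, and the log2 change was -0.15 (SE 0.06, limma adjusted p = 0.689).

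**Figure D3:**
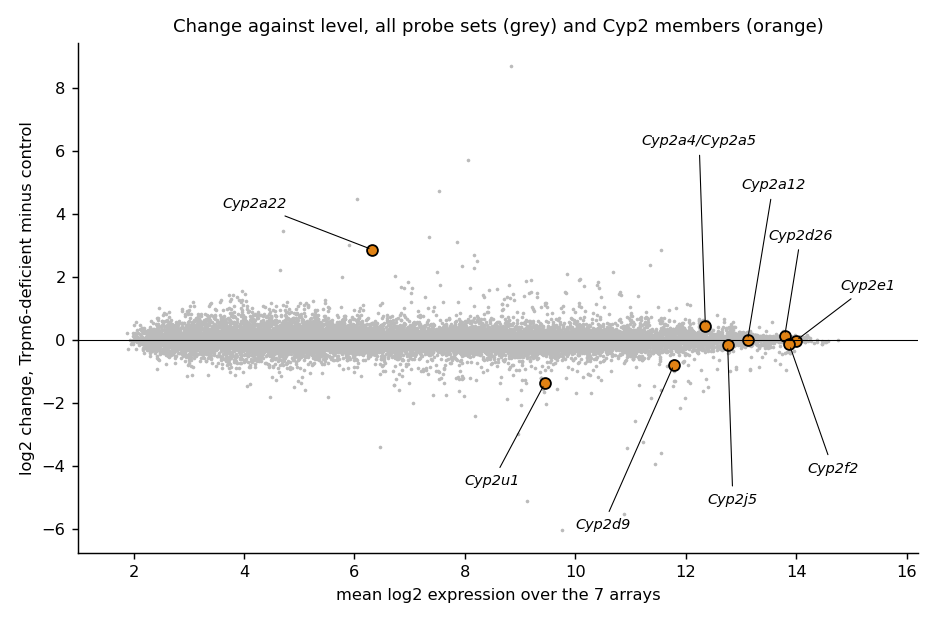
Log2 change (Trpm6-deficient minus control, vertical) against mean log2 expression over the 7 arrays (horizontal) for all 35556 probe sets in grey and the 9 Cyp2 probe sets in orange. Cyp2a22 and Cyp2u1 lie at the edge of the grey cloud, and most other members lie near 0 at the bright end.

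The other Cyp2 genes on chromosome 7 all had log2 changes above 0, except Cyp2r1 (-0.03). The other Cyp2d genes, on chromosome 15, went both ways, from -0.57 to 0.28. On chromosome 7, Cyp2b9 rose by 8.71 on the log2 scale (SE 0.19, limma adjusted p = 8.27e-05), and Cyp2b13 and Cyp2b10 had log2 changes of 4.48 and 3.29 without a call. Cyp2a22 and Cyp2a12 follow each other there, with log2 changes of 2.88 and 0.00. On chromosome 15, Cyp2d9 lies between Cyp2d10 (-0.19) and Cyp2d12 (-0.57, limma adjusted p = 0.388). Cyp2d12 was dim in every liver, at 4.50 to 4.60 in Trpm6-deficient livers and 4.92 to 5.37 in controls. Over the 37 other Cyp2 genes, 1 was called higher (background 0.0759%) and none lower (background 0.0534%), with a median log2 change of 0.08. Before adjustment, 10 of the 37 passed a limma p of 0.05 upward (background 3.85%) and 2 downward (background 3.03%). In 9 of them the Trpm6-deficient livers lay wholly above the controls (background 2.94%), and in 1 wholly below (background 2.38%). By subfamily, the median was 3.29 over 5 other Cyp2b genes, 0.29 over 13 Cyp2c genes, -0.05 over 8 other Cyp2d genes and -0.01 over 5 other Cyp2j genes. Trpm6-deficient 2, the highest liver for Cyp2a22, was also the highest for Cyp2b13, at 8.20, 10.23 and 7.41 in Trpm6-deficient livers against 3.98 to 4.23 in controls. It was the highest for Cyp2c39 too, at 8.84, 10.14 and 9.49 in Trpm6-deficient livers against 6.94 to 7.49 in controls. Of the 9 genes wholly above the controls, it was also the highest for Cyp2b9, Cyp2b10, Cyp2c37, Cyp2c38 and, narrowly, Cyp2c54 (12.74, 12.75 and 12.38). This order was not general. Among those 9, Trpm6-deficient 2 was the lowest Trpm6-deficient liver for Cyp2b19 (5.91, 5.68 and 6.08) and Cyp2d22 (12.81, 12.73 and 12.88). It was also the lowest for Cyp2b23 (6.29, 5.78 and 6.08), whose groups overlapped. Cyp2b19 and Cyp2b23 were dim, at 4.82 to 5.27 and 5.51 to 5.92 in controls.

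**Figure D4:**
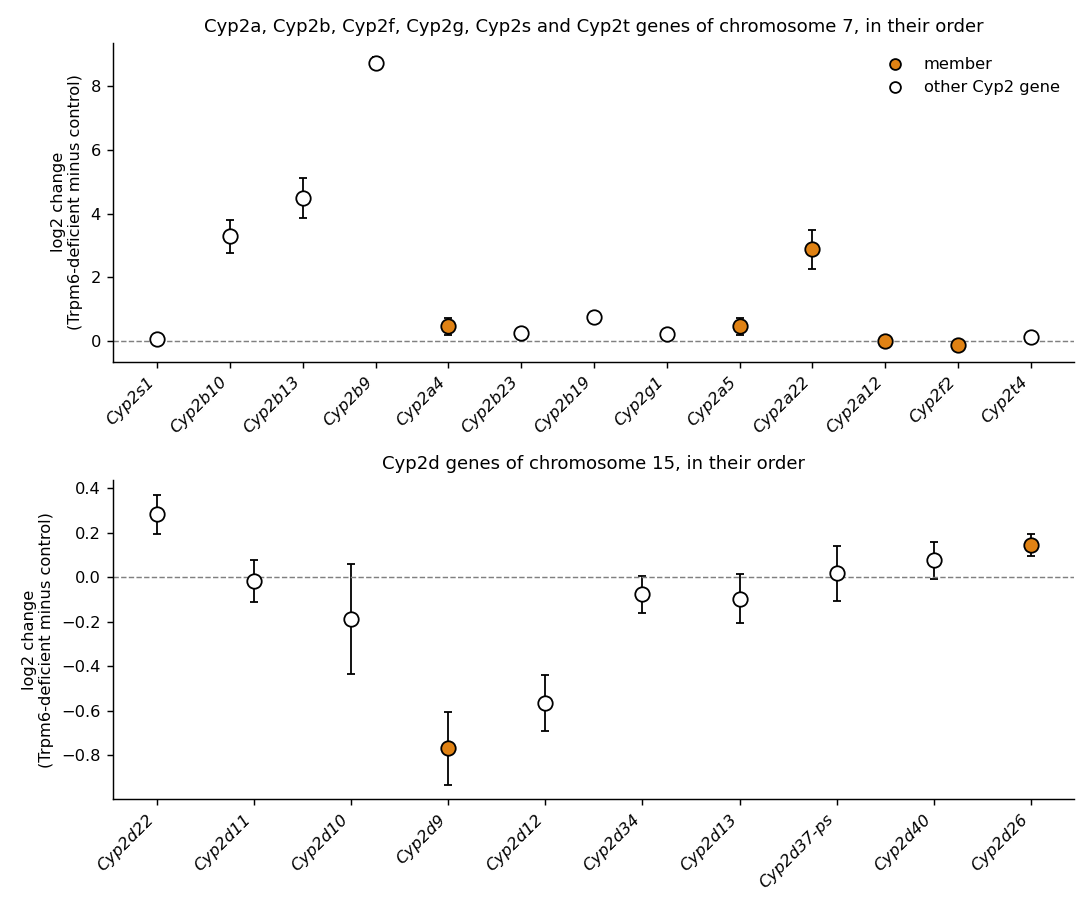
Log2 change (Trpm6-deficient minus control, bars showing the standard error) of Cyp2 genes in chromosomal order, spaced evenly, with members in colour; the vertical scale differs between panels. Cyp2a4 and Cyp2a5 are separate points drawn from their shared probe set, and Cyp2r1 and Cyp2e1 of chromosome 7 are left out. On chromosome 7 Cyp2b9 reaches 8.71 while Cyp2a12 stands at 0.00, and on chromosome 15 Cyp2d9 is the lowest at -0.77.

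No gene was called in the lists of redox partners and heme enzymes, regulators, or zonation genes. Of 16 measured redox and heme genes, 2 passed an unadjusted limma p of 0.05 upward (background 3.85% of all probe sets) and none downward (background 3.03%), with a median log2 change of 0.02. Alas1, the first enzyme of heme synthesis, had a log2 change of 0.10 (SE 0.40), Cyb5a, the electron donor cytochrome b5, 0.02, and Hmox1, the heme oxygenase, 0.56 (SE 0.18, limma adjusted p = 0.641), the highest of that list. Of 27 regulators, 3 passed it upward and 3 downward, with a median of -0.07. Nr1i3, the xenobiotic receptor CAR, measured 10.86, 10.54 and 11.02 in Trpm6-deficient livers and 9.93, 9.49, 10.27 and 10.08 in controls. Its groups stood apart, with a log2 change of 0.86 (SE 0.21, limma adjusted p = 0.428). Dbp, a clock-controlled factor, measured 7.37, 7.25 and 7.03 in Trpm6-deficient livers and 7.21, 8.64, 10.38 and 7.28 in controls, where control 3 stood far above the rest. Hnf4a, a master regulator of hepatocyte genes, had a log2 change of 0.01 (SE 0.18), and Nfe2l2, the oxidative stress factor NRF2, 0.03 (SE 0.23). Of 21 pericentral genes, 4 passed it upward and 2 downward (median 0.04), and of 17 periportal genes, 5 passed it upward and none downward (median 0.14), beside the same backgrounds of 3.85% upward and 3.03% downward. Pericentral Glul, the glutamine synthetase, had a log2 change of -0.28 (SE 0.10, limma adjusted p = 0.685), and periportal Hal, the histidase, 0.35 (SE 0.09, limma adjusted p = 0.428). Both lists went both ways. Pericentral log2 changes ran from -0.53 (Rhbg) to 0.57 (Slc1a4), and periportal ones from -0.28 (Cdh1) to 0.89 (Hsd17b6).

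Array medians were 6.43 to 6.48. Trpm6 itself measured 5.50, 5.37 and 5.50 in Trpm6-deficient livers and 5.53, 5.51, 5.50 and 5.50 in controls, so this probe set did not separate the genotypes, and the exons it reads were not examined. Hepatocyte markers (9 of 10 measured) had a mean log2 level of 13.77 to 13.79 in Trpm6-deficient livers and 13.67 to 13.81 in controls. All 8 sinusoidal endothelium markers were below 0 in log2 change (median -0.21), as were 7 of 8 Kupffer cell markers (median -0.29). None of them passed an unadjusted limma p of 0.05 (background 3.85% upward and 3.03% downward). Kupffer markers had a mean log2 level of 8.64 to 8.81 in Trpm6-deficient livers and 8.34 to 9.27 in controls, and endothelium markers 9.15 to 9.53 in Trpm6-deficient livers and 8.91 to 9.89 in controls. Control 1 set the lower end of both control ranges. Without it the median log2 changes were -0.51 (Kupffer) and -0.37 (endothelium). Without another control instead they were -0.25 to -0.17 (Kupffer) and -0.165 to -0.07 (endothelium). Stellate markers (8) had a median log2 change of 0.04, cholangiocyte markers (5 of 7) 0.16 and B and T cell markers (4 of 6) -0.02. An unadjusted limma p of 0.05 was passed upward (background 3.85%) by 2 stellate markers and 1 cholangiocyte marker, and by none of the hepatocyte or B and T cell markers. The stellate markers were Reln (log2 change 0.30, groups apart, background 2.94%) and Des (0.28, groups overlapping). The cholangiocyte marker was Krt19 (0.33, groups touching at 6.84). The remaining stellate markers did not pass, and Lrat was the lowest at -0.21. The part of these cell types in the Cyp2 values was not tested.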

How the data were processed

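Total RNA from the 7 livers was hybridised to Affymetrix Mouse Gene 1.0 ST arrays. The deposited values are log2 expression, normalised by the authors with RMA in Affymetrix Expression Console 1.4.0 and given to 2 decimals; the genome build is not given in the sources used here. Probe sets were named from the platform annotation (21789 with 1 symbol, 1621 with several, 12146 with none), and the brightest probe set was taken per gene. Groups were compared with limma 3.58.1 (lmFit and eBayes, R 4.3.3), without covariates, over 35556 probe sets. The script was first tested on simulated data. Members, lists and tests were chosen with earlier results of these data known; each member is named, and list genes named are those called, those with the highest or lowest change, and the best known. The other Cyp2b, Cyp2c and Cyp2d genes named, and Cyp2r1, were chosen after their values were seen. Alternatives were other normalisations, a minimum mean of 5, age, a replicate block, trended robust variances, a plain 2-sample t-test and leaving out each liver. Promoters came from RefSeq and were aligned with Biopython 1.88. The number of arrays limits the precision.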

Additional observations from a re-analysis of the deposited data

Results flagged for a closer look

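Among 40 probe sets examined in the 4 controls, 4 had 1 control apart from the rest by Dixon's ratio (gap over range). Chance gives about 1 in 20, and the ratio ignores the absolute size of the gap. Not every marker was among the 40. Outside them, control 1 measured 9.61 for the Kupffer marker Vsig4, against 11.08 to 11.17 in the other controls. It measured 10.56 for the endothelium marker Clec4g, against 11.94 to 12.08. Cyp2d9 measured 11.92 in control 3, against 12.17 to 12.20 in the others, and its log2 change was -0.84 without that liver. Cyp2e1 measured 13.97 in control 3, against 14.01 in each of the others. The cholangiocyte marker Epcam measured 5.81 in control 4, against 5.75 to 5.76. Glul, the pericentral glutamine synthetase, measured 12.90 in control 2, against 12.67 to 12.70.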

How the results depend on the processing

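Over all probe sets 46 were called, against 14 at an adjusted p of 0.05, 70 with a minimum mean of 5, 8 with age as a covariate, 8 by a plain 2-sample t-test and 7 to 69 when 1 liver was left out. The cause was not tested. Members called numbered 1, against 0 at an adjusted p of 0.05, 0 with age, 0 by a plain 2-sample t-test, 5 at an unadjusted p of 0.05, and 0 to 1 when 1 liver was left out. Without Trpm6-deficient 2 the member called was Cyp2a22, not Cyp2u1. Cyp2u1 was called in 5 of 14 alternatives, with a log2 change of -1.47 to -1.26. Cyp2e1, at -0.01, ranged between -0.04 and 0.045 when 1 liver was left out, turning positive without Trpm6-deficient 3. With the replicate number as a block (6 arrays), 1 probe set and 0 members were called, and Cyp2u1 had a log2 change of -1.35 with an adjusted p of 0.388. Same-numbered livers correlated at 0.33, 0.26 and 0.09 in their deviations from the group means. Trpm6-deficient 1 and 2 correlated best with the same-numbered control, and Trpm6-deficient 3 with control 4 (0.23). The labels number the livers without stating a pairing, so the main fit left them unpaired. Same-numbered livers matched in age for numbers 2 and 3, but control 1 was 12 and Trpm6-deficient 1 was 13 weeks old. Whether the numbers pair the livers was not settled. Averaging several probe sets per member was not run, since each member had 1. With 3 and 4 livers, small changes of bright genes such as Cyp2e1 are limited by array spread and rounding to 2 decimals.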
